A study of Rattus norvegicus with 48 samples.

Results

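The members described here are the genes for the subunits of oxidative phosphorylation, the set of 5 mitochondrial enzyme complexes that turn the energy of food into ATP. They were found by gene symbol in the array annotation: probe sets with a single symbol that starts with Nduf, a subunit letter and a number, Sdha to Sdhd, Uqcr, a lettered Cox4 to Cox8 subunit, or Atp5, without the Ndufaf assembly factors. The search gave 85 probe sets for 74 of the 14324 symbols on the array, and for the 10 symbols with more than 1 probe set the one with the highest mean signal was used. By complex these are 33 members of complex I, 4 of complex II, 7 of complex III, 14 of complex IV and 16 of complex V. The rule looked at names and signal level and used no difference between groups. Cox6c-ps1 and Ndufs6-ps1 are annotated as pseudogenes.

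Complexes I to IV form the respiratory chain of the inner mitochondrial membrane. Complex I takes electrons from NADH, complex II takes them from succinate, complex III passes them to cytochrome c, and complex IV (cytochrome c oxidase) hands them to oxygen. Complexes I, III and IV pump protons while doing so, and complex V, the ATP synthase, lets the protons flow back through a ring of c subunits whose rotation drives ATP formation in the F1 head. Neurons depend heavily on this pathway to pay for ion pumping and synaptic transmission. All members here are nuclear genes, and their transcripts were measured, not enzyme amounts or activity.

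The study asked how ancestral exposure to a fungicide and stress in adolescence bear on the adult brain. All animals were F3 males of the Sprague-Dawley strain, 120 days old, and each dyad of cage mates held 1 vinclozolin-lineage and 1 control-lineage rat. The groups in every brain area were St-Vin (vinclozolin lineage, restraint stress), St-Con (control lineage, restraint stress), NSt-Vin (vinclozolin lineage, no restraint) and NSt-Con (control lineage, no restraint). The vinclozolin lineage descends from F0 females injected intraperitoneally with vinclozolin, an anti-androgenic fungicide, at 100 mg/kg/day between embryonic days 8 and 14. The control lineage descends from F0 females given the vehicle DMSO. Restraint lasted 6 hours a day for 21 days, on postnatal days 23 to 43. The areas were basolateral amygdala, motor cortex, CA1 and CA3, sampled as 2 mm punches of mixed cell types, and each array carries RNA pooled from 4 animals, with the same pools supplying all areas. Dyad groups 1 to 3 were not stressed and dyad groups 4 to 6 were. Each group had 3 arrays. Only 2 were used for the NSt-Vin group of motor cortex and the St-Con group of CA1, because the remaining array of each equals the mean of the others. In such tissue, fewer cells of a type and less RNA per cell cannot be told apart.

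Signals are log2 values. Markers of choroid plexus, a secretory tissue of the ventricles, were high on 5 of the 46 arrays: St-Vin 3 of amygdala, NSt-Con 1 of motor cortex, NSt-Con 2 and 3 of CA1 and NSt-Con 3 of CA3. All amygdala arrays were scanned on 1 day and all CA3 arrays on another. In CA1 the St-Vin arrays were scanned on a different day from all other arrays. In motor cortex the NSt-Con arrays and NSt-Vin 1 were scanned on 1 day and the rest on another. Stress differences in motor cortex of control-lineage rats and in CA1 of vinclozolin-lineage rats therefore cannot be told apart from scan day. The same holds in CA1 for the lineage difference with stress and for the difference between the stress differences of the lineages. In motor cortex the latter difference includes the control-lineage stress difference.

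Among the members lower with stress in CA1 at an unadjusted p below 0.05 in limma are the genes of the c ring of ATP synthase. The ring subunit is encoded by 3 genes, Atp5mc1, Atp5mc2 and Atp5mc3, which give the same mature protein with different import signals. The RefSeq sequences of their start regions, 250 bases before to 50 bases after the annotated start on the minus strand of assembly GRCr8, are shown because these genes share a product and are read from separate promoters. They lie at chr10:81523296-81523595 for Atp5mc1, chr7:135678169-135678468 for Atp5mc2 and chr3:79220615-79220914 for Atp5mc3. Capitals mark matches to 4 motifs searched on both strands, namely GCGCATGCG for NRF1, CCGGAAGT for GABPA, TCAAGGTCA for the estrogen-related receptors (ERR) and AAGATGGCG for YY1, all factors known to drive nuclear genes of mitochondria.
Atp5mc1: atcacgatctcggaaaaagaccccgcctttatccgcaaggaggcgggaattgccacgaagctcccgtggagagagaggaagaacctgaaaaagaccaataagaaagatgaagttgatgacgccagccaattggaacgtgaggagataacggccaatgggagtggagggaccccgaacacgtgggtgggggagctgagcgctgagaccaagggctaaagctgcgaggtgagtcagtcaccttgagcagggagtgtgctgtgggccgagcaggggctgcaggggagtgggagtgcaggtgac
Atp5mc2: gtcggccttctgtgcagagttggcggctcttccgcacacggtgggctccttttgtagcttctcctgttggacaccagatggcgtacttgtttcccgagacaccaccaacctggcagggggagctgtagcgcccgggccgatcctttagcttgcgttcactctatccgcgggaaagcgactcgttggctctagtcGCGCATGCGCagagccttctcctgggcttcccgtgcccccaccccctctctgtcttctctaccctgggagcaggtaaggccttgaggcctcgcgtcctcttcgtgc
Atp5mc3: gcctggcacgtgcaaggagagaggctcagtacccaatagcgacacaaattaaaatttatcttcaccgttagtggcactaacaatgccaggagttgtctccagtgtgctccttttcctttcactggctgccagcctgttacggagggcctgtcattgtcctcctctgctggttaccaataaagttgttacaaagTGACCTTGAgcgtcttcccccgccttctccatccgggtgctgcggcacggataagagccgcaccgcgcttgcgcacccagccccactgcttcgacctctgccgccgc

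The Atp5mc2 window holds the NRF1 letters on both strands, as overlapping matches whose first bases lie at -56 and -55 from the start site. The Atp5mc3 window holds the ERR letters on the opposite strand at -57, and the Atp5mc1 window holds none of the 4. A promoter entry was found for 65 members, none of them a pseudogene. At least 1 motif stood in 22 of these 65 windows (33.8%), against 7.07% of all 33469 windows. By motif, NRF1 letters stood in 6 member windows (9.23%, against 1.52% of all), GABPA letters in 7 (10.8%, against 3.81%), ERR letters in 2 (3.08%, against 0.433%) and YY1 letters in 8 (12.3%, against 1.73%). By complex, a motif was found in 9 of 30 windows of complex I, 1 of 4 of complex II, 3 of 5 of complex III, 2 of 11 of complex IV and 7 of 15 of complex V. A match describes the letters of the window, not a bound site.

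Most members had high signals. Their mean levels within an area ran from 5.49 to 12.1 in amygdala, 5.30 to 12.1 in motor cortex, 5.59 to 12.3 in CA1 and 5.76 to 12.4 in CA3. The median SD between replicate arrays of a group was 0.119 for the members in amygdala, against 0.0999 for all probe sets, and 0.0837 in motor cortex, against 0.0847. It was 0.0936 in CA1, against 0.0936, and 0.0778 in CA3, against 0.084. The lowest SD was that of Cox6c in amygdala (0.0356) and CA3 (0.0388), and of Ndufs6-ps1 in motor cortex (0.0414) and CA1 (0.0417). The highest was that of Ndufa3, a small complex I subunit, in amygdala (0.228) and CA3 (0.197), of Ndufb6 in motor cortex (0.184) and of Atp5mg in CA1 (0.185). Members with a mean below the 30th percentile of all probe sets were Cox8b in all 4 areas and Cox6b2 in motor cortex, CA1 and CA3. Cox8b and Cox6a2 are known as heart and skeletal muscle isoforms, Cox6b2 and Cox8c from testis.

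In CA1, members had lower means in stressed rats of both lineages. The count was 66 of 74 in St-Vin against NSt-Vin, with a median log2 difference of -0.10, and 60 of 74 in St-Con against NSt-Con, with a median of -0.078. In both lineages at once 54 members were lower and 2 were higher. No share over all probe sets is given beside that joint count. The vinclozolin and control pools of a dyad group came from cage mates, so the lineages are not independent. Across all probe sets 55.5% were lower in the vinclozolin lineage (median -0.02) and 53.4% in the control lineage (median -0.0067). Most members are bright, so a second background is the 4603 probe sets of CA1 with a mean of at least 9: of these 53.2% were lower with stress in the vinclozolin lineage (median -0.013) and 47.2% in the control lineage (median 0.005).

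No member passed the threshold of an adjusted p below 0.05 in limma in CA1, in either lineage. In the vinclozolin lineage 138 probe sets did (0.505% of 27342), and in the control lineage 0 did, where 889 had an unadjusted p below 0.05. At an unadjusted p below 0.05, 20 members were lower and 0 higher in the vinclozolin lineage, which is 27.0% of them, against 12.6% of all probe sets lower. In the control lineage 12 were lower and 0 higher, which is 16.2%, against 1.95% of all probe sets lower. Averaged over the lineages, 69 of 74 were lower with a median of -0.086, and 20 of them had an unadjusted p below 0.05, against 10.9% of all probe sets lower at that p. Every St-Vin array lay below every NSt-Vin array for 20 members, 27.0% of them, against 16.5% of all probe sets. Every St-Con array lay below every NSt-Con array for 25 members, 33.8% of them, against 9.04% of all probe sets, with 2 St-Con arrays.

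**Figure D1:**
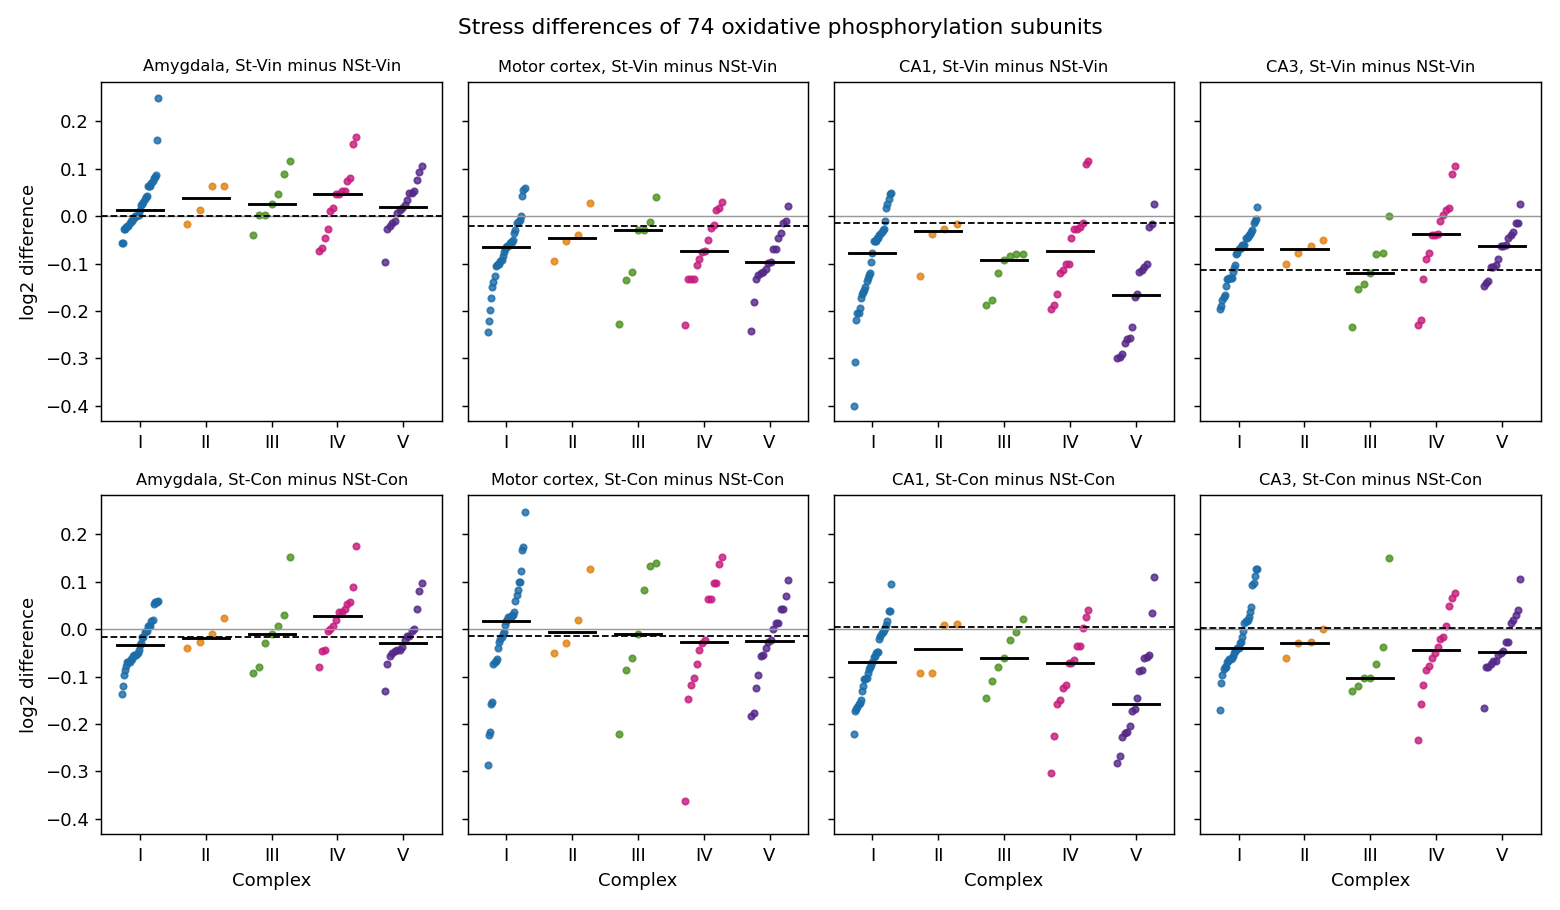
Log2 stress differences (stressed minus non-stressed, y axis) of the 74 members by complex (x axis) in 4 areas, with the vinclozolin lineage in the upper row and the control lineage in the lower row. Each point is a member, solid bars are medians of a complex and the dashed line is the median of all probe sets with a mean of at least 9, which is -0.113 in CA3 of the vinclozolin lineage. In CA1 the complex V median is -0.17 in the vinclozolin lineage and -0.16 in the control lineage, where NSt-Con 2 and 3 are choroid-rich.

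With all arrays used, complex V had the lowest median of the 5 complexes in CA1 in both lineages. Its median stress difference was -0.17 in the vinclozolin lineage, with 15 of 16 members lower, and -0.16 in the control lineage, with 14 of 16 lower. In 13 of the 16 members the difference was below 0 in both lineages, again without a share over all probe sets. The other complexes had medians between -0.093 (complex III) and -0.032 (complex II) in the vinclozolin lineage. Control-lineage medians lay between -0.072 (complex IV) and -0.042 (complex II). In the control lineage the order of the complexes depends on the choroid-rich NSt-Con 2 and 3. Against NSt-Con 1 alone, complex III and not complex V had the lowest median. The difference between complexes was not tested.

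The c-ring genes were among the members lower at an unadjusted p below 0.05 in limma in both lineages. In the vinclozolin lineage Ndufa10, Atp5po and Atp5pb, described below, had smaller p-values than any of them. Atp5mc1 had 9.35, 9.25 and 9.38 in St-Vin against 9.48, 9.53 and 9.46 in NSt-Vin, and 9.43 and 9.31 in St-Con against 9.56, 9.58 and 9.77 in NSt-Con. All stressed arrays lay below all non-stressed arrays of CA1 for this gene. The differences were -0.16 ± 0.069 (SE) in the vinclozolin lineage and -0.27 ± 0.077 in the control lineage, the smallest p of any member in the control lineage (adjusted p = 0.996 in limma).

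Atp5mc2 had 9.81, 9.70 and 9.72 in St-Vin against 10.06, 9.99 and 9.95 in NSt-Vin, and 9.85 and 9.56 in St-Con against 10.01, 9.92 and 10.03 in NSt-Con. Its stressed arrays again lay below all non-stressed ones, with differences of -0.26 ± 0.076 (SE) and -0.28 ± 0.085. A dimmer probe set of the same gene gave -0.037 in the vinclozolin lineage and -0.17 in the control lineage, so the size depends on the probe set. Atp5mc3 had 9.99, 9.90 and 9.98 in St-Vin against 10.22, 10.31 and 10.24 in NSt-Vin, and 10.03 and 10.04 in St-Con against 10.15, 10.17 and 10.47 in NSt-Con. Its groups did not overlap, with differences of -0.30 ± 0.080 and -0.23 ± 0.090, and the control-lineage difference was -0.115 without the choroid-rich arrays. In the vinclozolin lineage its adjusted p was 0.106 in limma, and 0.0424 without the choroid-rich arrays.

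The 4 peripheral stalk subunits on the array had differences of either sign, none past the threshold, and the array values of 2 of them and of the inhibitor follow. The other 2 are Atp5pd, with -0.17 ± 0.071 (SE) in the vinclozolin and -0.060 ± 0.080 in the control lineage, and Atp5pf, with -0.017 ± 0.098 and 0.11 ± 0.11. Atp5pb, the b subunit of the peripheral stalk that holds the F1 head still, had 10.78, 10.68 and 10.89 in St-Vin against 11.03, 11.11 and 11.08 in NSt-Vin, a difference of -0.29 ± 0.072 (SE). Its control-lineage values were 10.91 and 10.82 in St-Con against 11.05, 10.97 and 11.19 in NSt-Con, a difference of -0.20 ± 0.081. Neither pair of groups overlapped.

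Atp5po, the stalk subunit that confers oligomycin sensitivity, had 8.98, 8.89 and 9.04 in St-Vin against 9.30, 9.26 and 9.15 in NSt-Vin, a difference of -0.27 ± 0.065 (SE). Control-lineage values of 9.06 and 9.21 in St-Con against 9.22, 9.18 and 9.27 in NSt-Con overlapped, with -0.088 ± 0.073. Atp5if1, the inhibitor that stops the enzyme from running backwards, had 10.65, 10.48 and 10.67 in St-Vin against 11.04, 10.85 and 10.80 in NSt-Vin, a difference of -0.30 ± 0.083. Its control-lineage values were 10.76 and 10.64 in St-Con against 10.98, 10.86 and 10.78 in NSt-Con, also without overlap, with -0.17 ± 0.093.

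In the F1 head the differences varied by subunit. Atp5f1d, the delta subunit of the central rotor, had -0.26 ± 0.079 (SE) in the vinclozolin lineage and -0.22 ± 0.089 in the control lineage. Atp5f1a and Atp5f1b, the alpha and beta subunits that form the catalytic ring, had -0.11 ± 0.069 and 0.027 ± 0.066 in the vinclozolin lineage. In the control lineage they had -0.085 ± 0.077 and -0.053 ± 0.074. Neither reached an unadjusted p of 0.05 in either lineage.

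**Figure D2:**
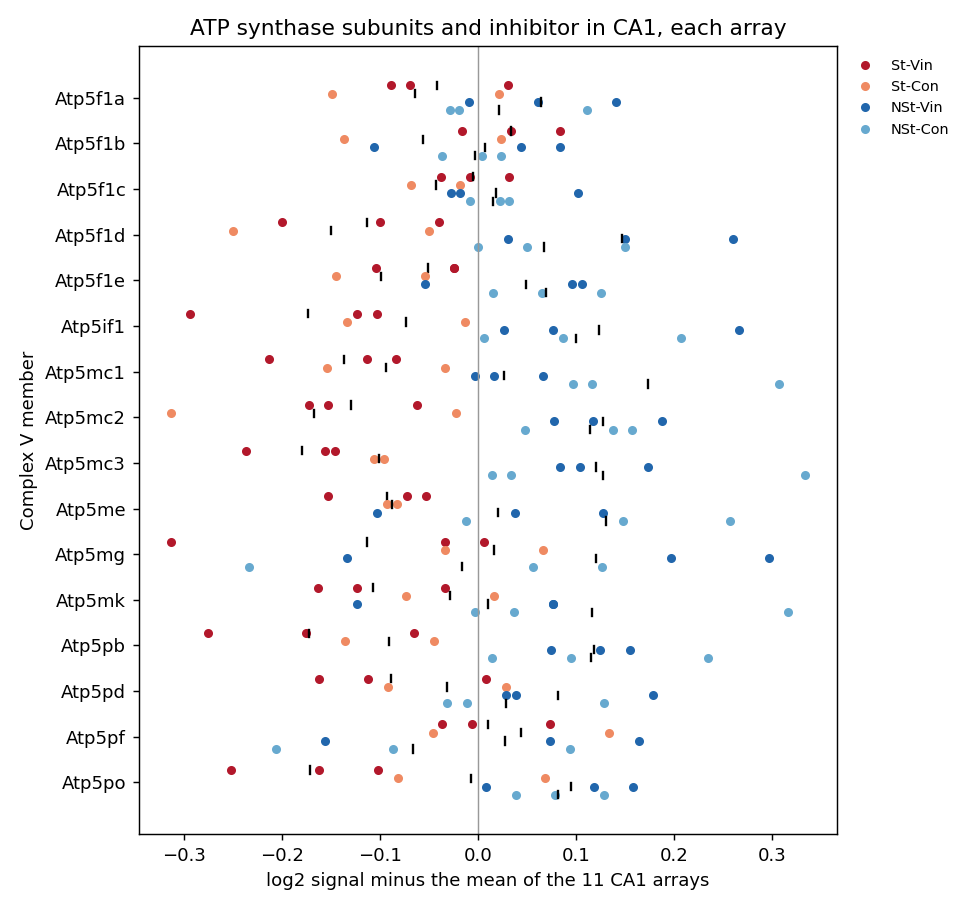
Signal of the 16 complex V members (rows) in each of the 11 CA1 arrays, as log2 signal minus the member's mean over those arrays (x axis). Points are arrays, coloured by group, and black ticks are group means. For Atp5mc1, Atp5mc2 and Atp5mc3 every stressed array lies left of every non-stressed array, while for Atp5f1b the groups overlap.

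In complex I, 28 of 33 members were lower with stress in CA1 of the vinclozolin lineage (median -0.077) and 27 in the control lineage (median -0.068). Ndufa10, an accessory subunit, had the smallest p of any member in the vinclozolin lineage. It had 7.23, 7.17 and 7.26 in St-Vin against 7.63, 7.44 and 7.79 in NSt-Vin, without overlap, a difference of -0.40 ± 0.093 (SE) with an adjusted p of 0.0789 in limma. In the control lineage it had 7.34 and 7.39 in St-Con against 7.26, 7.55 and 7.43 in NSt-Con, groups that overlapped. Averaged over the 4 areas of each pool and over lineages, its stress difference was -0.15 ± 0.030 (adjusted p = 0.456 in limma). Ndufs1, Ndufv1 and Ndufv2, core subunits that carry flavin or iron-sulfur clusters, had differences between -0.053 and 0.017 in the vinclozolin lineage, with SE between 0.052 and 0.077. Their control-lineage differences lay between -0.068 and -0.015. Ndufs7 and Ndufs8, which carry the clusters nearest to ubiquinone, had -0.030 ± 0.080 and -0.047 ± 0.087 in the vinclozolin lineage, and -0.13 ± 0.090 and -0.093 ± 0.098 in the control lineage. Ndufa4, which carries a complex I symbol but is now placed in complex IV, had -0.16 ± 0.064 and -0.17 ± 0.071, the control-lineage value being -0.095 without the choroid-rich arrays.

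Complex II had the median differences nearest 0 of the 5 complexes in CA1. Sdha and Sdhb, the flavoprotein and iron-sulfur subunits that oxidise succinate, had -0.017 ± 0.084 (SE) and -0.027 ± 0.11 in the vinclozolin lineage. In the control lineage they had 0.012 ± 0.094 and 0.0083 ± 0.13. Sdhc and Sdhd, the membrane anchors, had -0.13 ± 0.074 and -0.037 ± 0.078 in the vinclozolin lineage and -0.093 ± 0.082 and -0.092 ± 0.087 in the control lineage. None of the 4 reached an unadjusted p of 0.05 in either lineage.

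In complex III, 7 of 7 members were lower in CA1 of the vinclozolin lineage and 6 of 7 in the control lineage. Uqcrq, a small subunit next to cytochrome b, had 9.39, 9.26 and 9.42 in St-Vin against 9.58, 9.55 and 9.47 in NSt-Vin, and 9.41 and 9.34 in St-Con against 9.51, 9.51 and 9.54 in NSt-Con. Both pairs of groups were apart, with differences of -0.18 ± 0.058 (SE) and -0.14 ± 0.065. The core proteins Uqcrc1 and Uqcrc2 had -0.19 ± 0.11 and -0.080 ± 0.052 in the vinclozolin lineage, and -0.060 ± 0.12 and -0.0067 ± 0.058 in the control lineage. Uqcrfs1, the Rieske iron-sulfur protein, had -0.12 ± 0.063 and -0.11 ± 0.070.

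Complex IV had 12 of 14 members lower in CA1 of the vinclozolin lineage and 11 in the control lineage. Cox7c, a small nuclear subunit, had 10.33, 10.23 and 10.37 in St-Vin against 10.48, 10.53 and 10.48 in NSt-Vin, and 10.36 and 10.37 in St-Con against 10.49, 10.49 and 10.59 in NSt-Con. The groups did not overlap in either lineage, with differences of -0.19 ± 0.055 (SE) and -0.16 ± 0.061. Cox8a, the ubiquitous isoform of subunit 8, had -0.12 ± 0.063 and -0.23 ± 0.070, and the dim Cox8b had -0.013 ± 0.097 and -0.30 ± 0.11. In the control lineage Cox8a had 11.72 and 11.61 in St-Con against 11.82 in NSt-Con 1. It had 11.86 and 11.99 in the choroid-rich NSt-Con 2 and 3. Cox8b had 5.40 and 5.50 in St-Con against 5.62, 5.66 and 5.98 in NSt-Con, the highest being a choroid-rich array, and the difference was -0.19 without that array and -0.17 without both choroid-rich arrays. Cox5a and Cox5b, subunits at the matrix face, had -0.11 ± 0.072 and -0.027 ± 0.083 in the vinclozolin lineage and -0.12 ± 0.081 and -0.15 ± 0.093 in the control lineage. The more widely expressed isoforms Cox6a1 and Cox7a2 had -0.023 ± 0.070 and -0.047 ± 0.053 in the vinclozolin lineage and -0.072 ± 0.078 and -0.072 ± 0.060 in the control lineage. Of the tissue isoforms, Cox6a2 had 0.11 and 0.027, Cox8c -0.10 and -0.035, and Cox6b2 -0.027 and -0.065, none at an unadjusted p below 0.05.

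Markers of other cell types differed between the same CA1 groups. In St-Con against NSt-Con all 16 choroid plexus markers were lower, with a median of -1.03. The marker mean ran from -0.42 to -0.26 around the area mean in St-Con and from -0.42 to 2.24 in NSt-Con, where NSt-Con 2 and 3 are choroid-rich. Without the choroid-rich arrays, which leaves 1 NSt-Con array, 64 of 74 members were lower, with a median of -0.11, and 8 were lower at an unadjusted p below 0.05. In St-Vin against NSt-Vin all 17 oligodendrocyte markers were higher, with a median of 0.47, and their mean ran from -0.074 to 0.40 in St-Vin and from -0.35 to 0.044 in NSt-Vin, which overlap. Astrocyte and ependyma markers separated the same groups. All 11 astrocyte markers were lower (median -0.17), with means of -0.14 to -0.040 in St-Vin and 0.033 to 0.20 in NSt-Vin. All 6 ependyma markers were lower (median -0.27), with means of -0.31 to -0.21 in St-Vin and 0.0059 to 0.22 in NSt-Vin. All 5 dentate granule cell markers were lower too (median -0.28), with means of -0.48 to 0.23 in St-Vin and -0.013 to 0.70 in NSt-Vin. In St-Con against NSt-Con, 10 of 11 astrocyte markers were lower (median -0.063), with means of -0.082 to -0.050 in St-Con and -0.0075 to 0.049 in NSt-Con. Of 13 pyramidal cell markers of fields CA3 and CA2, 11 were lower, with a median of -0.48, and their mean ran from -0.45 to -0.041 in St-Vin and from -0.0097 to 0.32 in NSt-Vin. Means of 2 other neuron lists leaned the other way, with ranges that overlap. For CA1 pyramidal cells they ran from -0.083 to 0.40 in St-Vin and from -0.44 to 0.15 in NSt-Vin. For cortical layer neurons they ran from 0.082 to 0.31 in St-Vin and from -0.34 to 0.11 in NSt-Vin. The part of all these markers in the member differences was not tested. Without St-Con 2, 46 of 74 members were lower in the control lineage, with a median of -0.032, and 1 was lower at an unadjusted p below 0.05. Without St-Con 1, 67 were lower, with a median of -0.14.

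In CA3, all arrays of which were scanned on 1 day, 66 of 74 members were lower in St-Vin than in NSt-Vin, with a median of -0.068. Of the 5607 probe sets with a mean of at least 9 in CA3, 90.3% were lower in the same comparison, with a median of -0.11. After quantile normalization of the CA3 arrays the direction turned, with 29 of 74 members lower and a median of 0.020. At an unadjusted p below 0.05, 7 members were lower (9.46%), against 9.19% of all probe sets, a share at the background. The smallest p was that of Uqcr11, a small complex III subunit. It had 10.77, 10.74 and 10.56 in St-Vin against 11.03, 10.93 and 10.81 in NSt-Vin, which did not overlap, a difference of -0.23 ± 0.066 (SE) with an adjusted p of 0.249 in limma.

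In St-Con against NSt-Con of CA3, 51 of 74 members were lower, with a median of -0.042, against 47.5% of the bright probe sets, whose median was 0.0033. At an unadjusted p below 0.05, 4 members were lower (5.41%), against 1.81% of all probe sets, and 1 was higher. The higher one was Uqcrb, a subunit near the ubiquinone site of complex III, which also had the smallest p of the members there. It had 12.59, 12.45 and 12.49 in St-Con against 12.28, 12.35 and 12.45 in NSt-Con, which touched at 12.45, a difference of 0.15 ± 0.054 (SE, adjusted p = 0.997 in limma), and its other probe sets gave 0.14 and 0.12. Without the choroid-rich NSt-Con array 45 members were lower, with a median of -0.0225. Averaged over lineages, 11 members were lower at an unadjusted p below 0.05 in CA3, against 6.38% of all probe sets, and complex III had the lowest median, -0.125. In the same comparison 63 members were lower, 85.1% of them with a median of -0.056, against 85.4% of the bright probe sets with a median of -0.057, a share at that background. All 16 markers of striatal medium spiny neurons were lower in St-Con punches of CA3 (median -0.58), with means of -0.26 to -0.25 in St-Con and -0.20 to 0.96 in NSt-Con, and their part in the difference was not tested.

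In motor cortex of the vinclozolin lineage 64 of 74 members were lower in St-Vin than in NSt-Vin, with a median of -0.07, against 63.1% of the bright probe sets with a median of -0.02. At an unadjusted p below 0.05, 6 members were lower (8.11%), against 1.73% of all probe sets. With scan day as a block 48 of 74 were lower, with a median of -0.033, and without St-Vin 3 47 were, with a median of -0.0275. On St-Vin 3 the markers of leptomeninges, the membranes over the brain, had their highest mean in motor cortex, 0.568 above the area mean. The part of this tissue in the difference was not tested. Of the 74, 38 were lower in St-Con rats than in NSt-Con rats, with a median of -0.0083, against 54.4% of the bright probe sets with a median of -0.013, and 6 were lower at an unadjusted p below 0.05 (8.11%), against 10.3% of all probe sets. Averaged over lineages 8 members were lower at that p, against 8.08% of all probe sets. All 16 choroid plexus markers were lower in St-Con rats (median -0.92).

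Uqcrfs1 had the smallest p of the members in motor cortex of the vinclozolin lineage. It had 8.97, 8.94 and 8.78 in St-Vin against 9.16 and 9.09 in NSt-Vin, and 8.88, 8.93 and 9.0 in St-Con against 9.15, 9.22 and 9.10 in NSt-Con. No stressed array reached a non-stressed one, and the differences were -0.23 ± 0.071 (SE) and -0.22 ± 0.064, with adjusted p-values of 0.998 and 0.103 in limma.

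Cox6c-ps1 was the only member to pass the threshold in any comparison of lineage, stress or their interaction, in any area or in the mean of the areas. It is annotated as a pseudogene of Cox6c, a subunit of complex IV, and whether its probes also read Cox6c transcripts was not tested. In motor cortex it had 6.28, 6.27 and 6.29 in St-Con against 6.68, 6.69 and 6.56 in NSt-Con. All St-Con values were below the NSt-Con values, and the difference was -0.36 ± 0.061 (SE, adjusted p = 0.0366 in limma), in a comparison where 174 of 27342 probe sets passed (0.636%). NSt-Con and St-Con lie on different scan days here. Without the choroid-rich NSt-Con 1 the difference was -0.345 with an adjusted p of 0.0774, and leaving out any other array of these 2 groups, or either NSt-Vin array, also ended the call, with adjusted p-values of 0.0553 to 0.132. St-Vin had 6.32, 6.25 and 6.45, and NSt-Vin had 6.38 and 6.40.

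The stress difference of Cox6c-ps1 varied between areas. Averaged over lineages it was 0.12 ± 0.040 (SE) for amygdala, -0.21 ± 0.045 for motor cortex, 0.041 ± 0.053 for CA1 and 0.028 ± 0.037 for CA3. A limma F test of the difference between areas gave an adjusted p of 0.0108, and 286 probe sets passed (1.05%). Without the choroid-rich arrays that p was 0.0593, and without single dyad groups it ran from 0.0186 to 0.153. It was the only member called, and 7 members had an unadjusted p below 0.05, against 18.0% of all probe sets. The probe set of Cox6c itself had stress differences of 0.025 ± 0.037 for amygdala, -0.034 ± 0.051 for motor cortex, -0.11 ± 0.052 for CA1 and -0.0017 ± 0.032 for CA3.

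**Figure D3:**
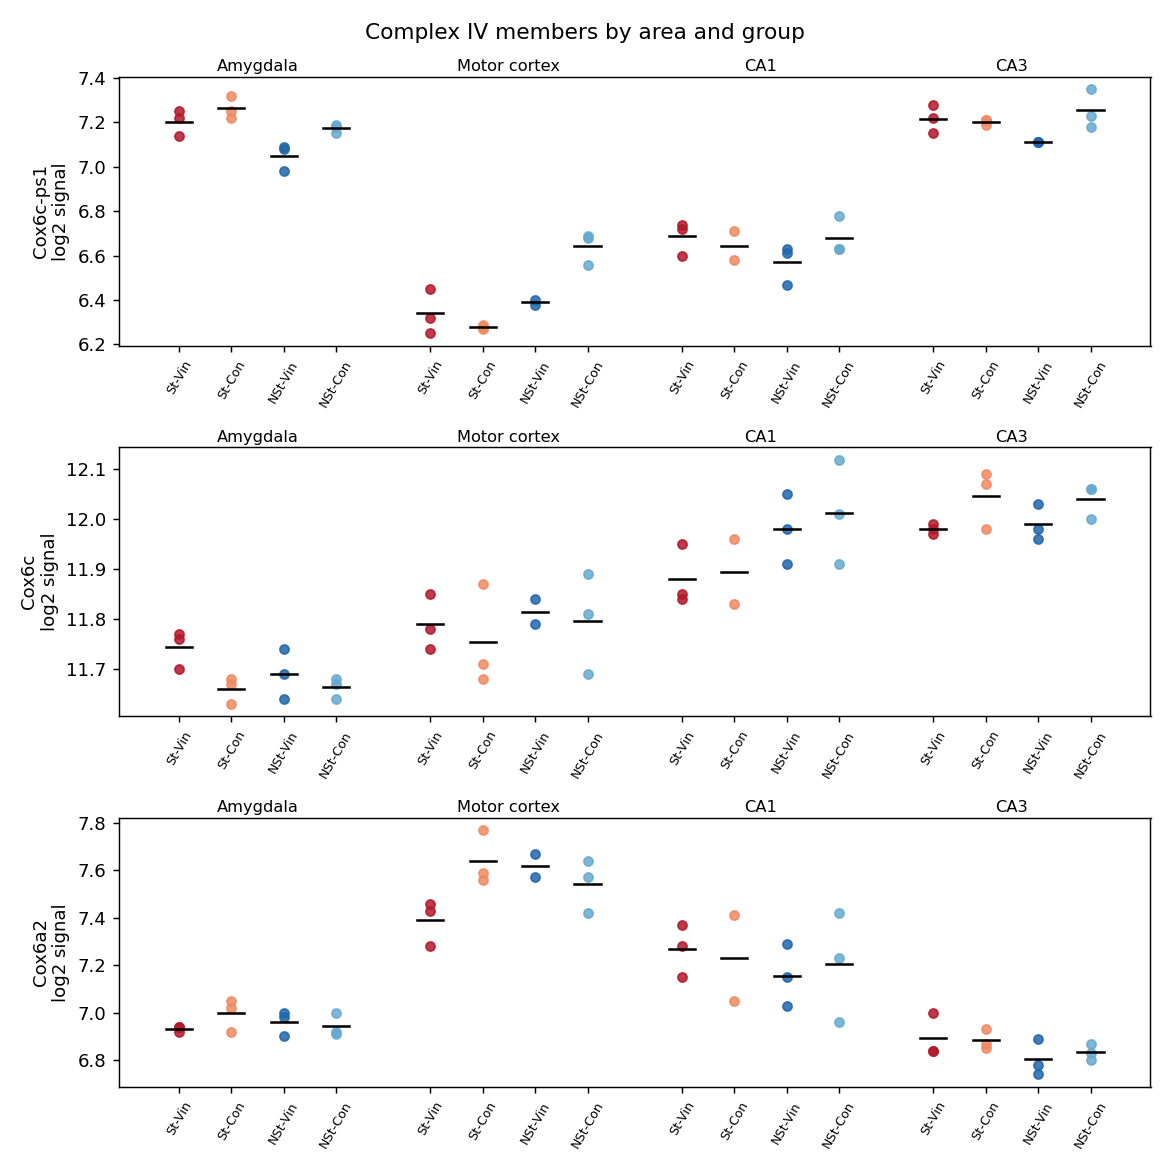
Log2 signal (y axis) of Cox6c-ps1, Cox6c and Cox6a2 in every array used, by area and group (x axis), with group means as bars. In motor cortex the 3 St-Con arrays of Cox6c-ps1 lie between 6.27 and 6.29, below the NSt-Con arrays at 6.56 to 6.69, and Cox6a2 is lower in the 3 St-Vin arrays (7.28 to 7.46) than in the 2 NSt-Vin arrays (7.57 and 7.67).

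Amygdala members showed no common direction with stress. In St-Vin 23 of 74 were lower than in NSt-Vin (median 0.023), and in St-Con 46 of 74 were lower than in NSt-Con (median -0.015). Of the bright probe sets 48.7% were lower in the vinclozolin and 57.5% in the control lineage. The members' counts ranged from 16 to 51 and from 20 to 63 when single arrays were left out. At an unadjusted p below 0.05, 0 members were lower in either lineage, against 1.01% of all probe sets in the vinclozolin and 1.95% in the control lineage, and 0 averaged over lineages, against 2.59%. Cox6c-ps1 was the 1 member higher at that p in the vinclozolin lineage, with 7.25, 7.14 and 7.22 in St-Vin against 6.98, 7.08 and 7.09 in NSt-Vin, which did not overlap (0.15 ± 0.057 SE). The smallest p in the control lineage was that of Cox7b, a complex IV subunit. It had 9.66, 9.95 and 9.59 in St-Con against 9.66, 9.53 and 9.48 in NSt-Con, which touched at 9.66, a difference of 0.18 ± 0.094. All 16 striatal markers had higher means with stress in amygdala punches, with medians of 0.50 in the vinclozolin and 0.64 in the control lineage. Their mean spread over each group, from -1.14 to 0.86 in St-Vin and -1.03 to 1.16 in St-Con, against -0.92 to 0.71 in NSt-Vin and -1.12 to 0.85 in NSt-Con.

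No lineage difference of a member passed the threshold in any area. The median difference without stress (NSt-Vin minus NSt-Con) was -0.028 for amygdala, 0.022 for motor cortex, 0.013 for CA1 and 0.0067 for CA3. With stress (St-Vin minus St-Con) they were 0.0067 for amygdala, -0.04 for motor cortex, -0.010 for CA1 and -0.038 for CA3. At an unadjusted p below 0.05, the members without stress numbered 0 for amygdala, 6 for motor cortex, 1 for CA1 and 2 for CA3, against 2.09%, 5.68%, 3.28% and 5.38% of all probe sets. With stress they were 0, 3, 2 and 4, against 2.58%, 6.04%, 4.97% and 4.18%. Without stress, members lower in NSt-Vin numbered 49 for amygdala, 25 for motor cortex, 30 for CA1 and 33 for CA3, against 61.3%, 36.6%, 26.6% and 23.2% of the bright probe sets. With stress, members lower in St-Vin numbered 34 for amygdala and 40 for CA1, against 46.8% and 38.1% of the bright probe sets. In CA3 they numbered 53, against 81.0% of the bright probe sets, whose median was -0.057. In motor cortex they numbered 56, or 75.7%, against 38.0% of the bright probe sets, whose median was 0.017. Without St-Vin 3, the pool of dyad group 6, the motor cortex median of the members was 0.0067. The stress difference in the vinclozolin lineage minus that in the control lineage had a median over the members of 0.045 for amygdala, -0.059 for motor cortex, -0.0175 for CA1 and -0.04 for CA3. The bright probe sets had medians of 0.023, -0.005, -0.018 and -0.113 in the same order, so the CA3 members lay nearer 0 than that background. The motor cortex value includes the control-lineage stress difference, which lies across scan days.

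Cox6c-ps1 had the smallest lineage p without stress in 3 areas. In motor cortex it had 6.38 and 6.40 in NSt-Vin against 6.68, 6.69 and 6.56 in NSt-Con, a difference of -0.25 ± 0.068 (SE, adjusted p = 0.731 in limma). In CA3 it had 7.11, 7.11 and 7.11 in NSt-Vin against 7.18, 7.35 and 7.23 in NSt-Con, a difference of -0.14 ± 0.052. In amygdala it had 6.98, 7.08 and 7.09 in NSt-Vin against 7.19, 7.18 and 7.15 in NSt-Con, a difference of -0.12 ± 0.057. The NSt-Vin arrays were lower without overlap in these 3 areas, and the areas share the animal pools. In CA1 NSt-Vin (6.47, 6.63 and 6.61) touched NSt-Con (6.63, 6.78 and 6.63), with a difference of -0.11 ± 0.071. The smallest p there was that of Ndufa10, at 0.21 ± 0.093, with 7.63, 7.44 and 7.79 in NSt-Vin overlapping 7.26, 7.55 and 7.43 in NSt-Con.

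With stress, the members with the smallest lineage p were Cox6c in amygdala, Ndufa2 in motor cortex and Ndufb3, a small complex I subunit, in both CA1 and CA3. Cox6c in amygdala had 11.76, 11.77 and 11.70 in St-Vin against 11.63, 11.67 and 11.68 in St-Con, which did not overlap, a difference of 0.083 ± 0.052 (SE). Ndufa2 in motor cortex had 6.57, 6.50 and 6.64 in St-Vin against 6.84, 6.68 and 6.80 in St-Con, also apart, a difference of -0.20 ± 0.063. Ndufb3 in CA1 had 9.58, 9.53 and 9.74 in St-Vin against 9.81 and 9.82 in St-Con, without overlap, a difference of -0.20 ± 0.078. These CA1 groups lie on different scan days. In CA3 Ndufb3 had 9.93, 9.87 and 9.76 in St-Vin against 9.87, 10.04 and 10.09 in St-Con, groups that overlapped, with -0.15 ± 0.063. In the limma F test of a lineage difference that varies between areas, 0 members had an unadjusted p below 0.05, against 4.67% of all probe sets.

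Cox6a2 is the isoform of subunit 6a known from muscle and, in mice, from parvalbumin interneurons. In motor cortex it had 7.28, 7.43 and 7.46 in St-Vin against 7.56, 7.59 and 7.77 in St-Con, without overlap, a difference of -0.25 ± 0.078 (SE, adjusted p = 0.826 in limma). Against NSt-Vin (7.57 and 7.67) the St-Vin arrays were also lower, with a difference of -0.23 ± 0.087 (adjusted p = 0.998 in limma). In that comparison 9 of 10 markers of parvalbumin interneurons were lower, with a median of -0.17. Their mean ran from -0.17 to 0.032 in St-Vin and from 0.075 to 0.094 in NSt-Vin, and Pvalb itself had -0.19 ± 0.075. In St-Con the marker mean ran from -0.016 to 0.049, which overlaps St-Vin. Within St-Vin the array with the lowest marker mean, St-Vin 3, had the highest Cox6a2 value (7.46). The part of these markers in the Cox6a2 differences was not tested.

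Each dyad group gives a lineage comparison between pools of cage mates. The mean over all 74 members in the Vin pool minus the Con pool averaged -0.0087 ± 0.067 (SD, n = 6 dyad groups) for amygdala, -0.017 ± 0.082 (n = 5) for motor cortex, -0.0013 ± 0.055 (n = 5) for CA1 and -0.012 ± 0.079 (n = 6) for CA3. In each area the SD between dyad groups exceeded the size of the mean. In dyad group 6 in motor cortex every complex was lower in the Vin pool, with differences between -0.17 (complex V) and -0.105 (complex II). Averaged over the areas measured, dyad groups 4 to 6, which were stressed, had differences of -0.0061, -0.022 and -0.046, and dyad groups 1 to 3 had 0.037, 0.034 and -0.053.

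**Figure D4:**
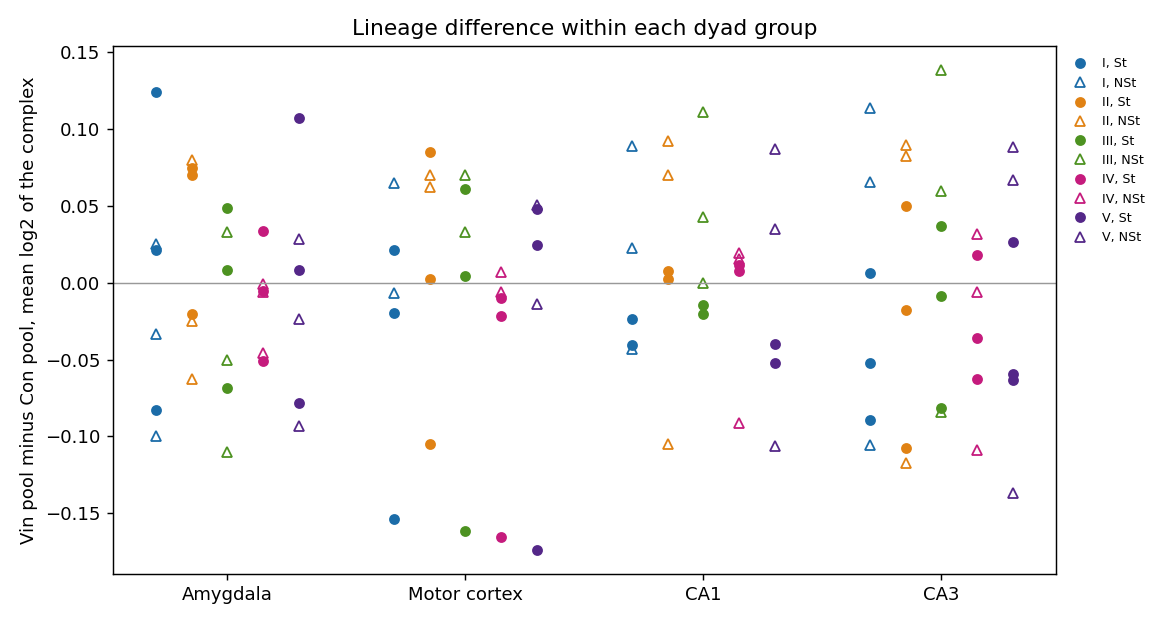
Difference of the vinclozolin pool from the control pool of the same dyad group (y axis, mean log2 signal over the members of a complex) by area (x axis). Filled circles are stressed and open triangles non-stressed dyad groups, coloured by complex. Values of either sign occur in each area, and the lowest single value is that of complex V in dyad group 6 of motor cortex, at -0.17.

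The areas themselves differed, but the direction for the members depended on how arrays of different areas were scaled. With each array centred on its median over all probe sets, the median member difference was 0.39 for motor cortex minus amygdala, 0.20 for CA1 minus amygdala and 0.18 for CA3 minus amygdala. It was -0.21 for CA1 minus motor cortex, -0.22 for CA3 minus motor cortex and 0.019 for CA3 minus CA1. As deposited, the same medians were 0.064, 0.23, 0.44, 0.14, 0.37 and 0.25, and after quantile normalization over all arrays 0.10, 0.0077, 0.0065, -0.11, -0.10 and 0.017. The sign of CA1 and of CA3 against motor cortex thus turned between scalings, while motor cortex, CA1 and CA3 each stayed above amygdala, by under 0.01 for CA1 and CA3 after quantile normalization. Apart from amygdala and part of motor cortex, the areas were scanned on different days. Area and scan day thus cannot be told apart for CA1 and CA3, against the other areas or each other. RNA of CA1 and CA3 was also prepared on a different day from that of amygdala and motor cortex. On the first scan day alone the median for motor cortex minus amygdala was 0.44 with centred arrays.

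**Figure D5:**
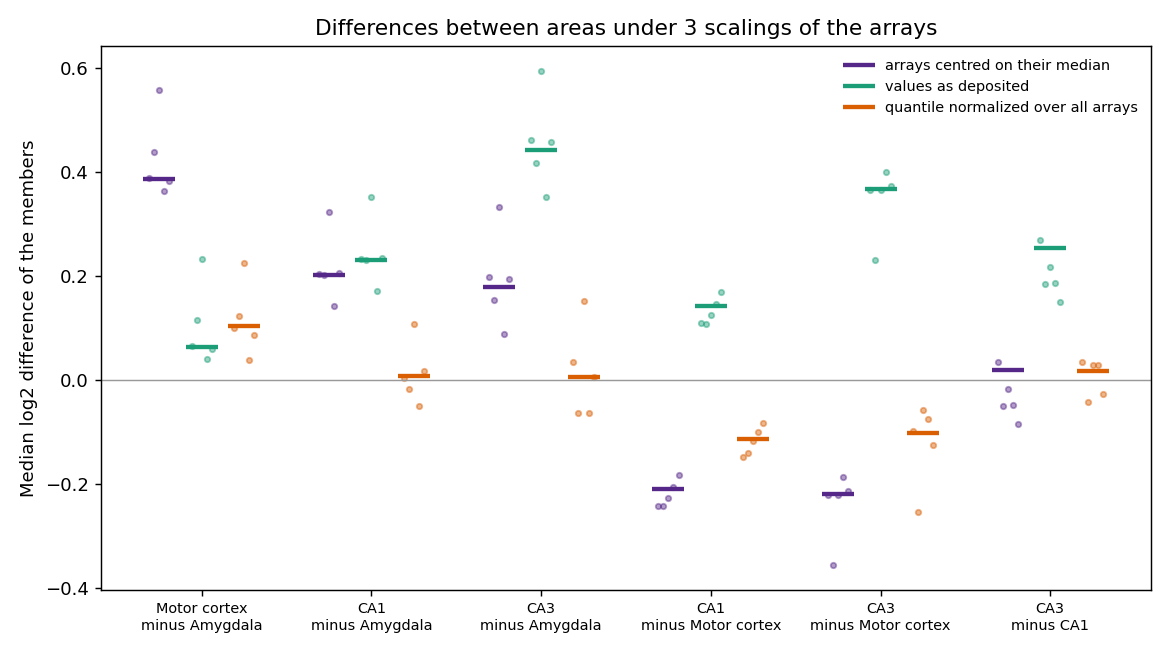
Median log2 difference of the 74 members between areas (y axis) for 6 pairs of areas (x axis), with bars for all members and pale points for the 5 complexes, under 3 scalings of the arrays. For CA3 minus motor cortex the median is -0.22 with centred arrays and 0.37 as deposited.

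With centred arrays, many probe sets of every kind differed between areas, and the members' counts stand beside that background. For motor cortex minus amygdala 67 of 74 members were higher at an adjusted p below 0.05 in limma and 4 lower, against 56.6% and 23.3% of all probe sets. For CA1 minus amygdala 57 were higher and 7 lower, against 51.6% and 23.9%, and for CA3 minus amygdala 54 higher and 4 lower, against 46.1% and 30.5%. For CA1 minus motor cortex 1 was higher and 60 lower, against 25.0% and 41.0%, and for CA3 minus motor cortex 7 higher and 58 lower, against 25.9% and 50.0%. For CA3 minus CA1 17 were higher and 16 lower, against 24.6% and 37.2%. Motor cortex was the highest area for 62 of 74 members with centred arrays, and amygdala the lowest for 61. As deposited, CA3 was the highest for 72.

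Individual members departed from the common area profile. As deposited, Cox6a2 averaged 7.54 ± 0.14 in motor cortex, 7.21 ± 0.16 in CA1, 6.96 ± 0.050 in amygdala and 6.85 ± 0.068 in CA3 (SD over 11, 11, 12 and 12 arrays). With centred arrays its difference was -1.28 ± 0.043 (SE) for CA3 minus motor cortex, 0.91 ± 0.043 for motor cortex minus amygdala and -0.60 ± 0.043 for CA3 minus CA1. Set against the median member of the same comparison, which does not depend on the centring, these differences were -1.06, 0.53 and -0.62. Sdhb had 0.88 ± 0.049 and Ndufs1 0.80 ± 0.047 for motor cortex minus amygdala with centred arrays, where the median member had 0.39. Cox6c-ps1 went the other way, with -0.44 ± 0.028 for motor cortex minus amygdala and -0.56 ± 0.028 for CA1 minus amygdala. Set against the median member these were -0.82 and -0.76. Uqcrfs1 had -0.64 ± 0.046 for CA1 minus motor cortex, and Ndufa3 had 0.55 ± 0.074 for CA3 minus amygdala. The median members of these comparisons had -0.21 and 0.18. Ndufa2, a small accessory subunit of complex I, had -0.30 ± 0.056 for CA1 minus amygdala and 0.32 ± 0.056 for CA3 minus CA1.

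Genes of neighbouring pathways were counted from lists of known function. In CA1 of the vinclozolin lineage, 13 of 15 genes of the citric acid cycle were lower with stress (median -0.083), as were 14 of 16 of glycolysis (median -0.11), 24 of 28 assembly factors of the respiratory complexes (median -0.075) and 42 of 67 mitochondrial ribosomal proteins (median -0.033). Control-lineage counts were 11 of 15 (median -0.035), 13 of 16 (median -0.059), 17 of 28 (median -0.031) and 44 of 67 (median -0.033). Proteins of the cytosolic ribosome, which are not mitochondrial, were lower in 41 of 70 and 43 of 70, with medians of -0.02 and -0.0225. None of these genes passed the threshold in CA1. Among subunits outside the naming rule, Ndufab1, the acyl carrier protein of complex I, had -0.44 ± 0.096 (SE) in the vinclozolin lineage and -0.37 ± 0.11 in the control lineage of CA1, with adjusted p-values of 0.0728 and 0.996 in limma.

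None of the regulators named here had an adjusted p below 0.05 in CA1. No value is given for Yy1, whose motif was also searched. Nrf1 had stress differences of 0.033 ± 0.063 (SE) in the vinclozolin lineage and 0.040 ± 0.070 in the control lineage. Gabpa had -0.19 ± 0.090 and -0.022 ± 0.10, and Esrra, an estrogen-related receptor, had -0.077 ± 0.055 and -0.14 ± 0.062. Ppargc1a, a coactivator of these factors, had -0.15 ± 0.13 and 0.0033 ± 0.15, and Tfam, which maintains mitochondrial DNA, had 0.10 ± 0.057 and -0.042 ± 0.064.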

How the data were processed

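Transcripts were measured on 48 Affymetrix whole-transcript arrays, 1 per pool of 4 animals and area. The deposited values are log2 signals made with Partek and RMA, which corrects background, normalizes arrays and summarises probe sets, per the submitters' processing notes (the sources used here give no versions). They ran from 3.89 to 15.59, and no columns were left unmapped. Array data have no read depth, so precision is limited by the number of arrays. Of the arrays, 46 were used: the other 2 are, within 0.0051 on all probe sets, the mean of their group's remaining arrays, against at most 6.82% of probe sets on any array used. No coordinates of probe sets are given because the sources used here do not name their build. Promoter sequences come from RefSeq (GRCr8), in which all 74 members were matched by gene number.

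Within each area, group means were fitted over all 27342 probe sets with limma 3.58.1 in R 4.3.3 (lmFit, eBayes, two-sided, Benjamini-Hochberg adjustment over all probe sets, threshold 0.05). Areas were compared with statmod 1.5.0 and limma's duplicateCorrelation, with the animal pool as a random block and each array centred on its median, since array medians differ between areas. Replicates are pools of 4 animals, so the p-values measure the spread between pools. The fit was tested on simulated data with independent noise for each probe set. In the St-Vin minus NSt-Vin comparison of CA1, 100 of the 27342 probe sets were changed by 0.5 and another 100 by 1 (log2). Of these, 76% and 95% were recovered. The median member difference there was -0.10, smaller than either change, so the recovery does not cover differences of that size.

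Dyad group numbers pair Vin and Con pools because the labels place their rats in the same cages. Deviations of same-numbered arrays correlated above 0.1 in 6 of 6 pairs of amygdala, 3 of 5 of motor cortex, 5 of 5 of CA1 and 5 of 6 of CA3. The design without this block was the main one. Alternatives were all 48 arrays, the dyad block, filters on low values, quantile normalization, centring, trended and robust eBayes, scan day, leaving out arrays, choroid-rich arrays (marker mean over 0.6 above the area mean) and the mean of a symbol's probe sets. A filter at a level of 9 and setting each member against the median member were added after seeing the data.

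The members and all gene lists were chosen with earlier results of these data known. Members named with values were those past the threshold, the smallest p in each simple comparison of each area, the extremes between areas, tissue isoforms and core subunits. Core subunits and isoforms are given mostly by their differences, and other members of complex V with small p-values in CA1 were chosen after their values were seen. The members with the highest and lowest level of each complex are not named, because levels of different probe sets are not set against each other.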

Additional observations from a re-analysis of the deposited data

Results flagged for a closer look

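The stress difference of Cox6c-ps1 differed between areas in limma's F test, with an adjusted p of 0.0108. Averaged over lineages it was -0.21 ± 0.045 (SE) in motor cortex, where stressed and non-stressed arrays mostly lie on different scan days, and between 0.028 and 0.12 in the other areas. The part of scan day in this difference was not tested.

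In motor cortex, dyad group 6 stood far from the other dyad groups in the mean of all members. The St-Vin pool minus the St-Con pool was -0.158, with 1 member higher and 73 lower, while the other 4 dyad groups of this area had differences between -0.0070 and 0.052. The 2 arrays of dyad group 6 were scanned on the same day. On the St-Vin array the mean of the leptomeninges markers lay 0.568 above the area mean, against at most 0.167 on the other motor cortex arrays. Its endothelium markers lay at 0.244 and its general neuron markers at -0.146. The part of these markers in the gap was not tested. With few dyad groups per area, chance alone flags some such gaps.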

How the results depend on the processing

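The count of probe sets past the threshold moved most. For St-Con minus NSt-Con in motor cortex it was 174, against 1027 with all 48 arrays, 50 and 0 without probe sets below the 30th percentile or a level of 9, 390 after quantile normalization, 385 with trended and robust eBayes, 19 without choroid-rich arrays, and 0 to 300 with single arrays left out. For St-Vin minus NSt-Vin in CA1 it was 138, against 752, 16, 12 and 44 under the first 4 of these, 4 with centred arrays, 305 without choroid-rich arrays, and 0 to 604 with single arrays left out.

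Leaving out single arrays moved the CA1 members lower at an unadjusted p below 0.05 to between 8 and 28 in the vinclozolin lineage and 1 and 14 in the control lineage, and centring gave 13 in the vinclozolin lineage. The CA1 median of the control lineage ranged from -0.1367 to -0.0317 and the CA1 interaction median from -0.0667 to 0.055. Amygdala counts of lower members ranged from 16 to 51 in the vinclozolin and from 20 to 63 in the control lineage. Ndufa10, Atp5pb and Atp5po passed the threshold in CA1 of the vinclozolin lineage with all 48 arrays (adjusted p = 0.0397, 0.0456 and 0.0422 in limma), and Atp5mc3 and Atp5pb did without NSt-Con 3 (0.0262 and 0.0487). Ndufv3 turned to 0.06 with the mean of its probe sets.

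Quantile normalization turned CA3 St-Vin minus NSt-Vin to 0.0203 with 29 members lower, and the CA3 interaction median to 0.0488. Cox6c-ps1 in motor cortex of the control lineage ranged from -0.405 to -0.34, and was -0.345 without choroid-rich arrays. Its F test p was 0.0593 without them, and 0.0186 to 0.153 with single dyad groups left out. The area medians as deposited were 0.0643 (motor cortex minus amygdala), 0.4425 (CA3 minus amygdala), 0.1429 (CA1 minus motor cortex), 0.3679 (CA3 minus motor cortex) and 0.254 (CA3 minus CA1). After quantile normalization they were 0.1042 and 0.00774 for motor cortex and CA1 minus amygdala, 0.00651 for CA3 minus amygdala, and -0.1124 and -0.101 for CA1 and CA3 minus motor cortex. The causes of these changes were not tested.

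With the dyad group as a replicate block, the median lineage difference with stress in CA1 was -0.035 in place of -0.010, and the pairing changed no call. Without the animal pool as a block the F test p of Cox6c-ps1 was 0.0181. Restricting CA1 to scan day 3 left out no St-Con or NSt-Con array used, so it is no check of that comparison.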

Other observations

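Genes of 2 further lists, not all of them mitochondrial, had lower means in stressed CA1. Of 9 antioxidant genes, 7 were lower in St-Vin than in NSt-Vin rats (median -0.11) and 9 in St-Con against NSt-Con (median -0.082). Of 9 genes from a list of carriers, pores and creatine kinases, 7 and 8 were lower in the same comparisons (medians -0.05 and -0.053). Across all probe sets 55.5% and 53.4% were lower in these comparisons. None of the genes of the 2 lists passed the threshold in limma.

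The c-ring genes had no common pattern in motor cortex. Atp5mc1 had -0.24 ± 0.076 (SE) for St-Vin minus NSt-Vin and 0.07 ± 0.068 for St-Con minus NSt-Con. Atp5mc2 had -0.013 ± 0.11 and -0.027 ± 0.096, and Atp5mc3 -0.12 ± 0.074 and -0.18 ± 0.066, with no adjusted p below 0.05. The 2 probe sets of Ndufv3, a small complex I subunit, pointed opposite ways in CA1 of the vinclozolin lineage, at -0.15 for the brighter and 0.27 for the dimmer.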
